A study of Mus musculus with 6 samples.

Results

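The genes described here encode the DNA replication machinery. They are 43 genes given as a list of symbols, from the factors that license replication origins to the helicase, the polymerases, the sliding clamp with its loader, and the proteins that coat and package the new strands. All 43 were found among the 18193 genes with a named probe set, and each was read from its brightest probe set over the 6 arrays. RNA was measured in Ba/F3 cells, an interleukin-3-dependent mouse haematopoietic line of BALB/c background, labelled as leukaemia cells. Every sample carried the PAX5-KIDINS220 fusion (P-K220) under a Retro-X Tet-on system and was grown with conditioned medium of WEHI-3 cells, a source of interleukin-3. In 3 samples the fusion was left off (Dox(-)), and 3 were given 500 ng/mL doxycycline (Dox(+)) for 24 h. No cells given doxycycline without the fusion were analysed here, so the drug and the fusion cannot be told apart. The labels do not say whether the cells were 1 clone or whether replicate samples came from separate cultures. The p-values therefore measure spread among these arrays only, part or all of which may be technical.

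A cell copies its genome once per division. In G1 phase the origin recognition complex, CDC6 and CDT1 load the MCM ring onto origins, and at the start of S phase the kinase CDC7-DBF4 and factors such as MCM10 turn the ring, with CDC45 and GINS, into the active helicase. Primase and polymerase alpha start each strand, polymerases delta and epsilon extend it on the PCNA clamp, and the flap nuclease FEN1 and ligase LIG1 join the lagging-strand pieces. Most of these genes are transcribed in late G1 and S phase under E2F factors, so their summed level in a culture depends on how many cells are dividing. In bulk RNA of this kind, fewer cells in S phase and less RNA per cell cannot be told apart.

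RefSeq promoter windows of 300 bases (250 before to 50 after the gene start, GRCm38.p6) were held for 35 of the 43 genes, and were not held for Gmnn, Mcm4, Gins1, Gins2, Gins4, Prim2, Pole and Rfc2. The E2F letters TTTGGCGC, TTTGCCGC, TTTCGCGC or TTTCCCGC, searched on both strands, stood in 15 of 43 windows of these genes (34.9%) and in 2.26% of all 32851 windows; matches to different versions can overlap, as in Mcm5 and Mcm6. CCAAT, the letters of the NF-Y box, stood in 58.1% against 37.4%, and TTTGAA, the core letters of the CHR element, in 18.6% against 17.9%. The 43 windows are those of the 35 genes, some of which have more than 1. By gene, the E2F letters stood in 15 of 35 (42.9%), against 2.6% of all symbols with a window. Matches are a description of letters and not of factor binding. The stretches below are printed because they set genes that differed between the sets of arrays described next beside 2 that did not pass. The genes that differed were Cdc6 and Orc1, among the most, and Mcm5, Mcm7 and Pola1. The 2 that did not pass, at their brightest probe sets, were Mcm6 and Gins3. Each stretch is 40 bases, 5′ to 3′ on the gene's strand, with the E2F letters or their reverse complement in capitals.
Cdc6 (chr11:98907997-98908036, plus strand, first capital 138 bases before the start): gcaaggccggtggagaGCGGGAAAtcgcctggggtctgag
Orc1 (chr4:108579411-108579450, plus strand, 27 bases before): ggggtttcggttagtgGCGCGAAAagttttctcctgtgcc
Mcm5 (chr8:75109340-75109379, plus strand, 153 bases before): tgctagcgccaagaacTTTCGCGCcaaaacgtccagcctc
Mcm7 (chr5:138172025-138172064, minus strand, 165 bases before): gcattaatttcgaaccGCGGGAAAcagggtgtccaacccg
Pola1 (chrX:93632270-93632309, minus strand, 138 bases before): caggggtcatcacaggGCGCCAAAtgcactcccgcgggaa
Mcm6 (chr1:128359729-128359768, minus strand, 47 bases before): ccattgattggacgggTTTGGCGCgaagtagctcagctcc
Gins3 (chr8:95633502-95633541, plus strand, 41 bases before): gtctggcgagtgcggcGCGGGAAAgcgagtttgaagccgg

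The 6 arrays fall into 2 sets by the start of the array code in their titles. The set coded EA15 holds 1 Dox(-) and 1 Dox(+) array, and the set coded EA20 holds 2 of each. The labels do not say what the codes mark, and within EA20 the codes of the Dox(+) arrays precede those of the Dox(-) arrays, so code order and treatment cannot be told apart there. Between the sets 6107 of 18193 genes differed (33.6%; limma, adjusted p under 0.05), 3148 higher and 2959 lower in EA20. Median centring of the arrays moved the median of all genes in this comparison by -0.18 on the log2 scale and the split to 2281 higher and 3863 lower. The deposited values are scaled so that every array has the same trimmed mean, and total mRNA per cell cannot be compared. One Pax5 probe set followed the labels at 3.76 to 20.3 on the Dox(-) arrays and 94.2 to 119 on the Dox(+) arrays (adjusted p 0.12 in the fit of every probe set with the set of arrays as a block), and a second one overlapped between groups, at 23.9 to 92.0 and 48.1 to 133. No probe set of Kidins220, the partner gene of the fusion, passed with doxycycline in that fit (differences -0.08 to 0.26, limma adjusted p 0.54 to 0.97). Its brightest probe set gave 2289 and 2546 in EA15 and 3982 to 4438 in EA20. Markers of the line were bright: Ptprc, the pan-leukocyte phosphatase CD45, ran from 7450.4 to 17687 and Csf2rb, the interleukin-3 receptor beta chain, from 8398 to 22447. The B-lineage genes Cd79a, Vpreb1, Igll1, Ebf1 and Rag1 were dim, between 1.07 and 118, where the median signal of an array was 56.5 to 65.9, and Cd79b ran from 467 to 777.

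With doxycycline no gene of the replication machinery passed the test when the sets of arrays were fitted as a block (limma on log2(signal + 16), adjusted p under 0.05; 0 of 43). The background is 36 of 18193 genes (0.198%), of which 9 were lower (0.0495%). The differences mostly lay on 1 side. Of the 43, 42 were below 0, against 49.3% of all genes. Their median was -0.22 on the log2 scale (1.16-fold lower), against 0.00374 over all genes. They ranged from -0.55 for Pola1 to 0.01 for Pold3. The genes were read from the same arrays, so a shift of 1 array can move many of the 43 together. Counts of genes, here and below, are therefore not counts of independent observations. At an unadjusted p under 0.05 stood 24 of 43, against 11.1% of all genes. The lowest adjusted p belonged to Rfc2 (0.072), Pola1 (0.099), Prim1 (0.11) and Gins1 (0.13). Without the block also none of the 43 passed, and none stood at an unadjusted p under 0.05, where 0 of 18193 genes passed (0%) and 470 stood at an unadjusted p under 0.05. In no gene of the 43 did the 3 Dox(+) arrays all lie under the 3 Dox(-) arrays, against 3.06% of all genes. In 41 of the 43 both EA15 arrays stood above the 4 EA20 arrays.

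Within the EA20 set alone, Prim1 was the 1 gene of 43 that passed (0.412% of all genes passed, and 0.11% were lower), and all 43 differences were below 0, with a median of -0.32 (1.25-fold lower) against -0.00165 for all genes. Both Dox(+) arrays lay under both Dox(-) arrays in 37 of 43 genes, against 20.9% of all genes. The groups overlapped in the other 6, which were Gins2, Lig1, Uhrf1, Pold3, Mcm6 and Rpa3. At an unadjusted p under 0.05 stood 29 of 43, against 13% of all genes. In the EA15 set, with 1 array a group and no test, 27 genes were lower and 16 higher with doxycycline, and the median was -0.03 (all genes 0.01). Of these 37 genes, 24 also had the lower signal on the Dox(+) array of EA15, and 11.2% of all genes were lower in both sets in this way. Those are 2034 of the 3809 genes lower in EA20 (53.4%). The difference was more negative in EA20 than in EA15 in 42 of 43 genes, with a median gap of -0.29, but a test of that gap passed for no gene (0 of 43, lowest adjusted p 0.69; 0% of all genes) and 13 stood at an unadjusted p under 0.05 (6.72% of all genes). The gap test assumes that the lone EA15 arrays vary like those of EA20.

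**Figure D1:**
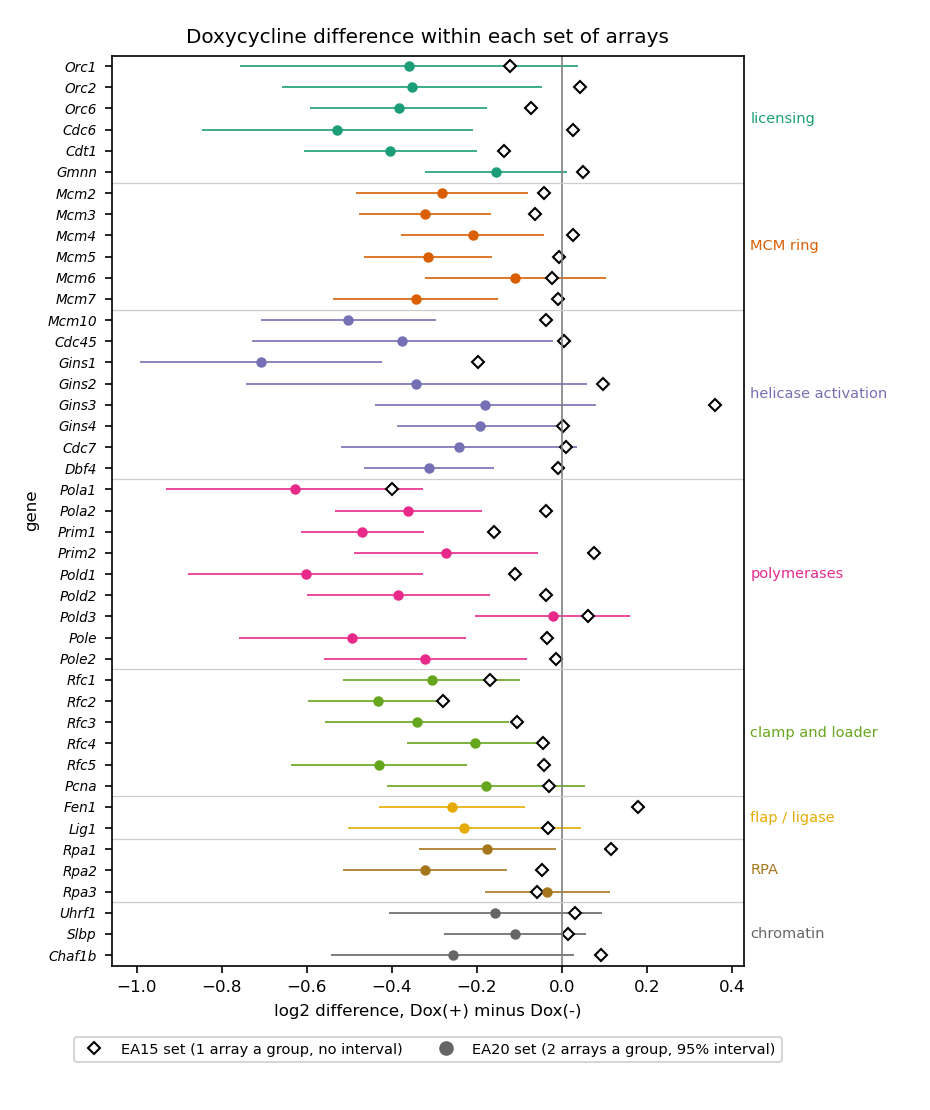
Log2 difference between Dox(+) and Dox(-) for each of the 43 genes (rows, grouped by role) within the EA20 set (filled points, 2 arrays a group, bars are 95% intervals from limma) and within the EA15 set (open diamonds, 1 array a group, no interval). All 43 EA20 points lie below 0, and the EA15 diamonds lie on both sides, from -0.40 for Pola1 to 0.36 for Gins3.

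The larger difference ran between the sets of arrays, whatever the treatment. Of the 43 genes, 41 differed between EA20 and EA15, 40 of them lower in EA20 and 1, Rfc2, higher (33.6% of all genes differed, 16.3% lower and 17.3% higher). The median was -1.08 on the log2 scale, or 2.11-fold lower, against 0.04 for all genes. Of the 43 genes, 24 were lower in EA20 by 2-fold or more (55.8%), against 4.38% of all genes. In 41 genes all 4 EA20 arrays lay under both EA15 arrays, against 21.5% of all genes. Among Dox(-) arrays alone the median was -0.96, and among Dox(+) arrays alone -1.18. The largest differences were those of Cdc6 (3.72-fold, 95% interval 2.99 to 4.62), Cdc45 (3.58-fold, 95% interval 2.94 to 4.37), Orc1 (3.20-fold, 95% interval 2.65 to 3.87) and Gins1 (3.18-fold, 95% interval 2.62 to 3.87). At the brightest probe set, the genes that did not pass were Mcm6 (-0.23, adjusted p 0.051) and Gins3 (-0.15, adjusted p 0.46). A second Gins3 probe set (mean signal 440, against 512 for the brightest) was lower in EA20. It passed in the fit of every probe set (-0.56, limma adjusted p 0.043).

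**Figure D2:**
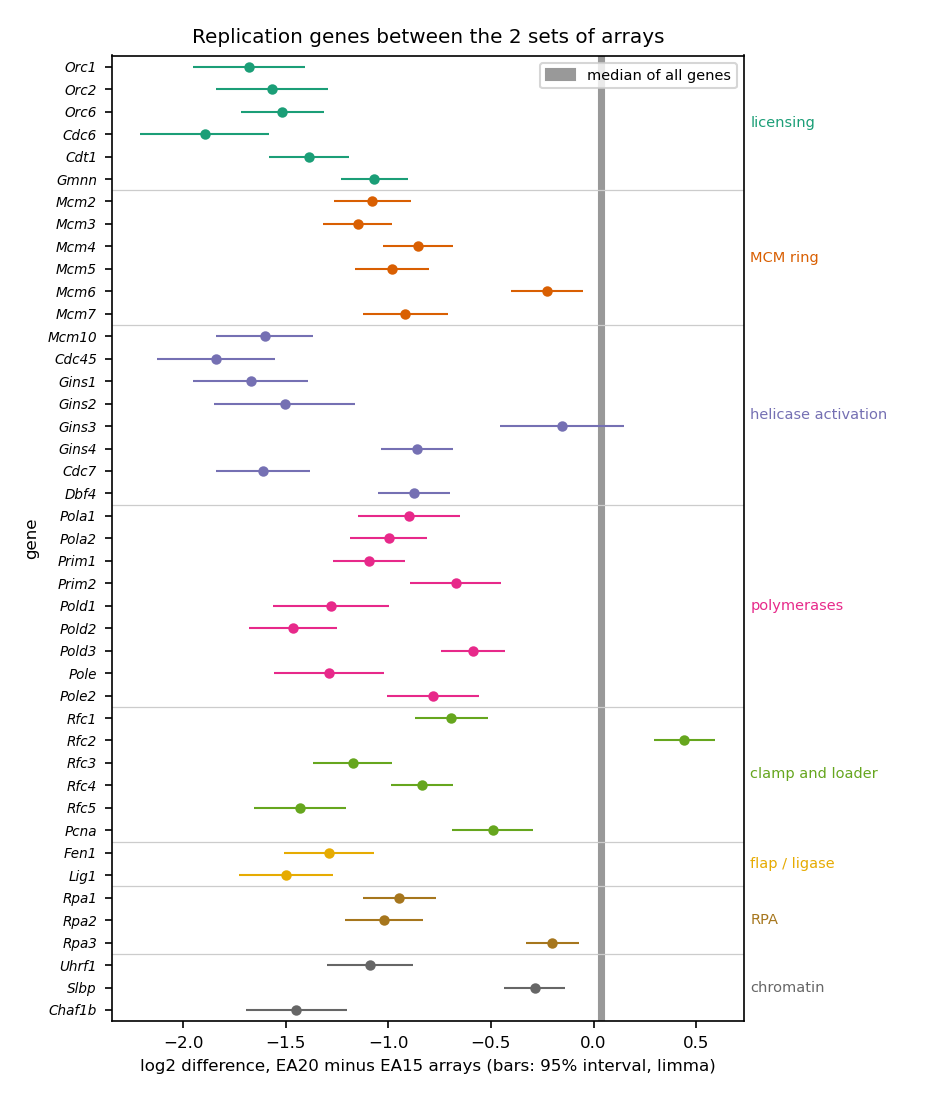
Log2 difference between the EA20 and EA15 arrays for each of the 43 genes (rows, coloured by role), with 95% intervals from limma as bars and the median of all 18193 genes as a grey line. Nearly all points lie left of the grey line, Cdc6 and Cdc45 farthest. Gins3, Rpa3, Mcm6 and Slbp lie nearest 0 (-0.15 to -0.29), and Rfc2 alone lies on the right at 0.44.

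Other measures moved with the sets. Of 8 haematopoietic markers 6 were higher in EA20, among them Il3ra (1.36), Csf2rb (1.26), Csf2rb2 (1.77) and Ptprc (1.11). The summed signal of the 8 was 43497 to 47547 in EA15 and 75022 to 84103 in EA20. Coro1a (0.09, limma adjusted p 0.47) and Lcp1 (-0.19, limma adjusted p 0.098) did not pass. For Lcp1 every EA20 array lay under both EA15 arrays. Of 4 macrophage markers 2 were higher and 1 lower, with sums of 1221 to 1355 and 1535 to 1703. Cd68 of this list did not pass (-0.71, limma adjusted p 0.061), and its EA20 arrays all lay under its EA15 arrays. Of 4 T cell markers 1, Cd3g, was higher, with sums of 144 to 164 and 391 to 459.8. Cd3e and Cd4 had no signal above 35.0. Cd8a lay the other way, at 103 and 110 in EA15 and 59.5 to 83.1 in EA20, and did not pass (-0.52, limma adjusted p 0.24). Of 6 B-lineage markers 1 was higher, with sums of 595 to 702 and 763 to 915. None of the erythroid (1 measured), fibroblast (3) and epithelial (3) markers differed, and their sums reached at most 19.2, 129.7 and 239. The 3′ to 5′ signal ratio of the actin control was 1.17 to 1.24 over the 6 arrays and that of the Gapdh control 0.637 to 0.688. The ratio of the transferrin receptor control was 2.71 to 3.14 on the Dox(-) arrays and 3.18 to 3.69 on the Dox(+) arrays. For the pyruvate carboxylase control it was 7.14 to 7.77 in EA15 and 2.64 to 3.03 in EA20. The part of these measures in the differences between the sets or with doxycycline was not tested. Within EA20 the haematopoietic sum was 75022 to 77634 in Dox(-) and 83235 to 84103 in Dox(+), and no marker of any list passed the test for doxycycline.

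**Figure D3:**
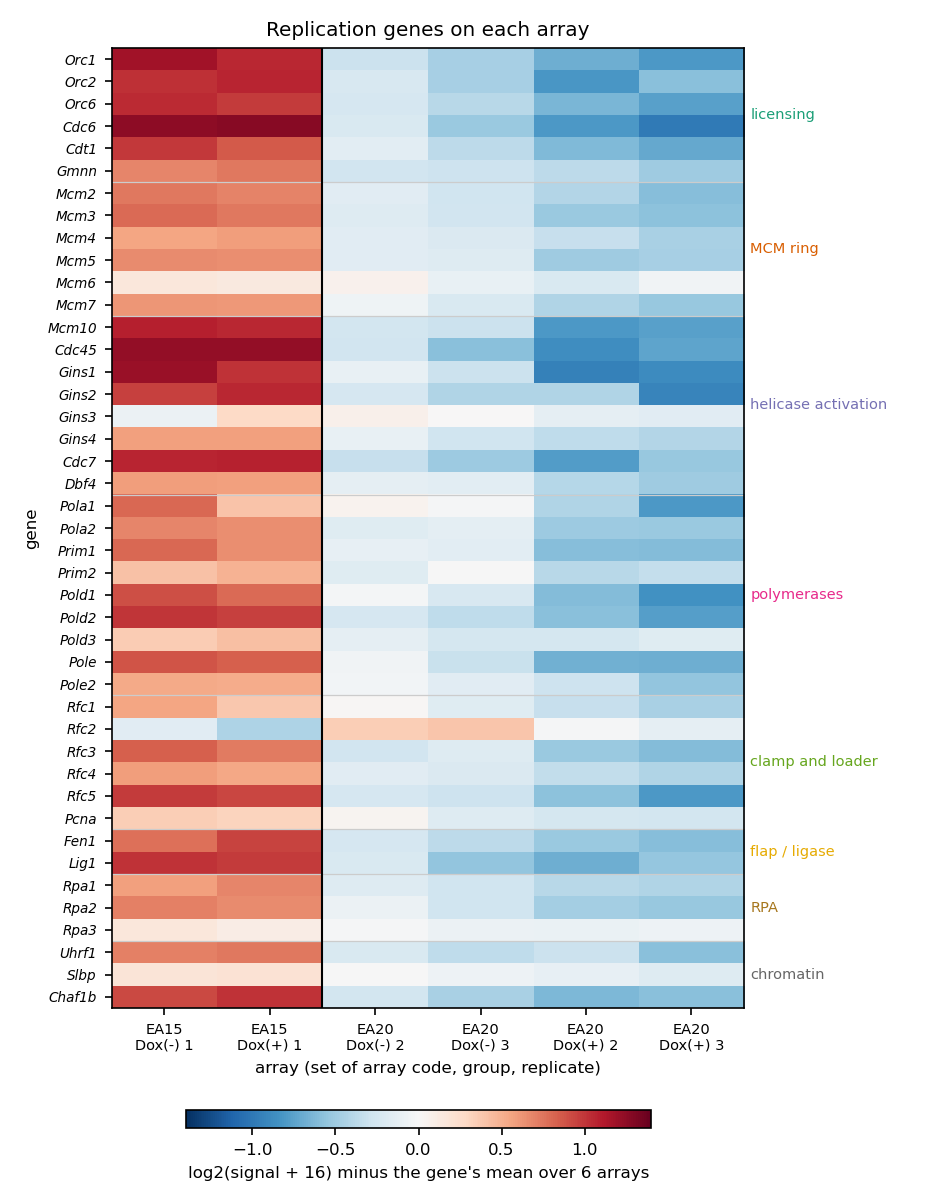
Signal of the 43 genes (rows, grouped by role) on the 6 arrays (columns), as log2(signal + 16) minus the mean of each gene over the 6 arrays, red for high and blue for low. The EA15 columns are red for nearly every gene (medians 0.74 and 0.70), the Dox(-) columns of EA20 pale blue (-0.16 and -0.28) and its Dox(+) columns darker blue (-0.48 and -0.55), with Rfc2 the reverse between sets.

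In the values that follow, the EA15 array is given first and the 2 EA20 arrays after it, in both groups, as linear signal. Levels of different probe sets cannot be set against each other.

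Origin licensing genes had a median doxycycline difference of -0.28 with the block, -0.37 in EA20 and -0.02 in EA15, with no gene past the test, and all 6 were lower in EA20 than in EA15 (median -1.54). Cdt1, which loads the MCM ring, gave 10690.2, 4822 and 4154 on the Dox(-) arrays and 9722, 3491 and 3269.6 on the Dox(+) arrays. Orc6, the smallest subunit of the origin recognition complex, gave 3311, 1347 and 1214 on the Dox(-) arrays and 3145, 1019.8 and 934 on the Dox(+) arrays. Both genes had every Dox(+) array under the Dox(-) arrays of its own set, with differences of -0.31 and -0.28 and adjusted p of 0.21 and 0.25. Cdc6, the ATPase that works with CDT1, gave 2215, 792 and 639 on the Dox(-) arrays and 2256, 523 and 456 on the Dox(+) arrays. Orc1, the large subunit with ATPase activity, gave 986, 343 and 305 on the Dox(-) arrays and 904, 259.6 and 238 on the Dox(+) arrays. Orc2, a core subunit, gave 1817, 754 and 637 on the Dox(-) arrays and 1871, 495 and 586 on the Dox(+) arrays. In all 3 the EA20 arrays were well under the EA15 arrays and the EA20 groups did not overlap, and in Cdc6 and Orc2 the EA15 Dox(+) array was the higher of its set. Gmnn, which encodes geminin, the inhibitor of CDT1, had a doxycycline difference of -0.09 and was 2.10-fold lower in EA20 than in EA15.

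The 6 genes of the MCM ring, the helicase core, had a median of -0.21 with doxycycline with the block, -0.30 in EA20 and -0.02 in EA15. None passed, and 5 of 6 were lower in EA20 (median -0.95). Mcm3 gave 8902, 4515 and 4249 on the Dox(-) arrays and 8522, 3568 and 3434 on the Dox(+) arrays. Mcm5 gave 12445, 7068 and 6946 on the Dox(-) arrays and 12381, 5557 and 5698 on the Dox(+) arrays. Mcm7 gave 14809, 9287 and 8332 on the Dox(-) arrays and 14706, 7184 and 6679.6 on the Dox(+) arrays. In these 3 ring subunits the EA15 arrays were nearly level with each other, with differences of -0.06, -0.0075 and -0.01, while in EA20 they were -0.32 (SE 0.07), -0.32 (SE 0.06) and -0.34 (SE 0.08). Mcm2, which also carries histones at the fork, gave 4439, 2374 and 2187 on the Dox(-) arrays and 4311, 2000.0 and 1750.3 on the Dox(+) arrays. Mcm4, the remaining ring subunit of this pattern, gave 9178, 5596 and 5402 on the Dox(-) arrays and 9339, 4966 and 4546 on the Dox(+) arrays. Their EA20 groups did not overlap either. Mcm6 stood apart, with 11311, 10519 and 9419.7 on the Dox(-) arrays and 11125, 8735 and 9734 on the Dox(+) arrays, so that its EA20 groups overlapped and its EA20 arrays lay only slightly under EA15. A second, bright Mcm6 probe set was higher in EA20 and passed in the fit of every probe set (0.27, limma adjusted p 0.023). The brightest one did not pass in that fit (-0.23, adjusted p 0.072). The Mcm6 probe sets thus disagree in direction between the sets.

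Helicase activation genes had a median of -0.20 with doxycycline with the block, -0.33 in EA20 and 0.00340 in EA15, with none past the test, and 7 of 8 were lower in EA20 (median -1.55). Gins1, a subunit of the GINS complex that joins the ring to the polymerase, gave 1717, 678 and 592 on the Dox(-) arrays and 1495, 373 and 390.4 on the Dox(+) arrays. Its EA20 difference of -0.71 (SE 0.12, adjusted p 0.074) was the largest of the 43 genes. Mcm10, an activator of the assembled helicase, gave 2285, 887 and 861 on the Dox(-) arrays and 2227, 602 and 622 on the Dox(+) arrays, and its EA20 difference was -0.50 (adjusted p 0.077). Its brightest probe set ends in _a_at. Of its dimmer probe sets 1 was also lower in EA20 (-0.95, adjusted p 0.027 in the fit of every probe set) and the other, which stands for the gene when that ending is left out, did not pass (-0.41, adjusted p 0.34). Dbf4, the regulatory subunit of the CDC7 kinase, gave 4614, 2806 and 2769.8 on the Dox(-) arrays and 4585, 2313 and 2173 on the Dox(+) arrays. Cdc45, the helicase cofactor, gave 1589, 556 and 440.4 on the Dox(-) arrays and 1594, 361 and 396 on the Dox(+) arrays. Gins4, another GINS subunit, gave 2566, 1599 and 1418 on the Dox(-) arrays and 2569.6, 1343 and 1288 on the Dox(+) arrays. In Dbf4, Cdc45 and Gins4 the EA15 arrays differed by less than 0.01 with doxycycline and the EA20 groups did not overlap. The kinase gene Cdc7 was 3.05-fold lower in EA20 than in EA15 and its subunit gene Dbf4 1.83-fold. At the brightest probe set, 3 of the 4 GINS genes differed between the sets. Gins1, Gins2 and Gins4 were 3.18-, 2.84- and 1.82-fold lower in EA20. Gins3, whose product shares the same complex, gave 482, 536 and 511 on the Dox(-) arrays and 623, 466 and 454 on the Dox(+) arrays. Its EA15 Dox(-) array lay within the range of the EA20 arrays and its EA15 Dox(+) array above them, and without that Dox(-) array Gins3 passed (-0.42, adjusted p 0.0497).

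The polymerase genes had median doxycycline differences of -0.27 with the block, -0.38 in EA20 and -0.04 in EA15, and all 9 were lower in EA20 (median -0.999). Pola1, the catalytic subunit of polymerase alpha, gave 2226, 1316 and 1256 on the Dox(-) arrays and 1683, 947 and 719 on the Dox(+) arrays. Its Dox(+) arrays lay under the Dox(-) arrays of the same set, with differences of -0.40 in EA15 and -0.63 in EA20. Its blocked difference of -0.55 (SE 0.10) had an adjusted p of 0.099. Prim1, the catalytic primase subunit, gave 5306, 2790.0 and 2730.3 on the Dox(-) arrays and 4749, 1995 and 1981 on the Dox(+) arrays. In EA20 it fell by 0.47 on the log2 scale (SE 0.06, 95% interval -0.61 to -0.33, adjusted p 0.037), a call that was lost when any EA20 array was left out and with median centring, a pseudocount of 64, the mean of all probe sets or no trend. Pold1, the catalytic subunit of polymerase delta, gave 2063, 1075 and 930.3 on the Dox(-) arrays and 1911, 711 and 599.7 on the Dox(+) arrays. Pola2, the second subunit of polymerase alpha, gave 2186, 1205 and 1229 on the Dox(-) arrays and 2129.8, 951 and 937 on the Dox(+) arrays. Pole, the catalytic subunit of polymerase epsilon, gave 1707, 889 and 737 on the Dox(-) arrays and 1665, 574 and 567 on the Dox(+) arrays. In all 3 the Dox(+) arrays lay under the Dox(-) arrays of the same set, with differences of -0.11, -0.04 and -0.04 in EA15 and -0.60, -0.36 and -0.49 in EA20. Of the polymerase delta genes, Pold1 and Pold2 were 2.43- and 2.76-fold lower in EA20 than in EA15, and Pold3 1.502-fold, with a doxycycline difference of 0.0061. The accessory genes Prim2 and Pole2 had doxycycline differences of -0.16 and -0.22.

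The clamp and its loader had medians of -0.26 with doxycycline with the block, -0.32 in EA20 and -0.08 in EA15, and the differences of all 6 genes were below 0 in both sets, with none past the test. Rfc2, a small subunit of the loader, gave 4341, 6135 and 6323 on the Dox(-) arrays and 3573, 4789 and 4433 on the Dox(+) arrays. It was the 1 gene of the 43 that was higher in EA20 than in EA15, by 0.44 on the log2 scale (SE 0.07, adjusted p 6.0e-04), while its doxycycline difference of -0.38 had the lowest adjusted p of the 43 (0.072). All 3 Rfc2 probe sets were higher in EA20, by 0.44, 0.52 and 0.44, and under quantile normalization and median centring the direction stayed. Rfc1, the large subunit, gave 2604, 1793 and 1578 on the Dox(-) arrays and 2312, 1420.5 and 1297 on the Dox(+) arrays. Rfc3 gave 1725, 796 and 846 on the Dox(-) arrays and 1601, 665 and 625 on the Dox(+) arrays. Rfc5 gave 5852, 2524 and 2422 on the Dox(-) arrays and 5684, 1983 and 1690.4 on the Dox(+) arrays. These 3 loader subunits and Rfc4 were 1.62-, 2.26-, 2.70- and 1.79-fold lower in EA20 than in EA15, opposite to Rfc2, with which they form 1 complex. Rfc4 gave 2988, 1785 and 1735 on the Dox(-) arrays and 2896, 1572 and 1482 on the Dox(+) arrays. Pcna, the clamp itself, was 1.41-fold lower in EA20, with a doxycycline difference of -0.13.

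The 2 genes of lagging-strand joining were lower in EA20 and did not pass with doxycycline (median -0.14). Lig1, the replicative ligase, gave 5843, 2482 and 1954 on the Dox(-) arrays and 5706, 1784 and 1973 on the Dox(+) arrays, and its EA20 groups overlapped. Fen1, the flap nuclease, gave 5049, 2501 and 2293 on the Dox(-) arrays and 5719, 2053 and 1946 on the Dox(+) arrays, so the Dox(+) array was the higher of the EA15 set and both Dox(+) arrays the lower in EA20. Of the RPA genes, whose products coat single-stranded DNA, none passed with doxycycline (median -0.08) and all 3 were lower in EA20. Rpa2 gave 3761, 2169.7 and 1899.8 on the Dox(-) arrays and 3644, 1652 and 1593 on the Dox(+) arrays. Rpa1 gave 11113, 6608 and 6153 on the Dox(-) arrays and 12050.0, 5702 and 5589.7 on the Dox(+) arrays. Rpa3 gave 3198, 2811 and 2699.9 on the Dox(-) arrays and 3069.7, 2675 and 2705 on the Dox(+) arrays. The small subunit gene Rpa3 was 1.15-fold lower in EA20 than in EA15 (adjusted p 0.023), against 1.93-fold for Rpa1 and 2.03-fold for Rpa2. The Rpa3 call was lost under quantile normalization, without the trend, and without Dox(-) array 1 or 3 or Dox(+) array 1 or 2 (adjusted p 0.052 to 0.17).

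The 3 chromatin genes had a median of -0.09 with doxycycline with the block and none passed. Chaf1b, a subunit of the chromatin assembly factor that places histones on new DNA, gave 1312, 572 and 498 on the Dox(-) arrays and 1400.1, 437 and 451 on the Dox(+) arrays. Slbp, which binds the stem-loop of histone mRNA, gave 10005, 8746 and 8370.2 on the Dox(-) arrays and 10102, 8114 and 7739 on the Dox(+) arrays. Uhrf1, which recruits the maintenance DNA methyltransferase, gave 4090.4, 2156 and 1938 on the Dox(-) arrays and 4178, 2025 and 1657 on the Dox(+) arrays. All 3 were slightly higher on the EA15 Dox(+) array than on the Dox(-) array, and in Uhrf1 the EA20 groups overlapped. They were 2.73-, 1.22- and 2.13-fold lower in EA20 than in EA15. The call for Slbp was lost without the mean-variance trend, with the mean of all probe sets, or without the EA15 Dox(+) array (adjusted p 0.090, 0.16 and 0.11).

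The 15 genes with E2F letters had a median difference between sets of -1.09 and the 20 without also -1.09, and in EA20 the medians with doxycycline were -0.32 and -0.31. Of the genes printed above, Cdc6 and Orc1 were 3.72- and 3.20-fold lower in EA20 than in EA15. Mcm6 and Gins3, which hold such letters too, did not pass at their brightest probe sets. Other probe sets of the 43 genes mostly shared the sign of the brightest one. Of 49 further probe sets, 5 had the opposite sign between sets, 1 of them, for Mcm6, among the 32 with a mean signal of 200 or more. For doxycycline in EA20, 6 had the opposite sign, 2 of them (Pold3 0.09 and Rfc1 0.02) with such a signal.

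Further genes of replication were read from a list of 32, of which 31 were measured. With doxycycline none passed with the block, 27 of 31 differences were below 0 and the median was -0.22. The lowest p belonged to Rif1, which controls replication timing (-0.32, adjusted p 0.074), Atad5, which unloads the clamp (-0.50, 0.18), Orc5, an origin recognition subunit (-0.26, 0.18), and Tipin, of the fork protection complex (-0.25, 0.22). Rif1 gave 3394, 2784 and 2778 on the Dox(-) arrays and 2795, 2227 and 2175 on the Dox(+) arrays, so the Dox(+) arrays were lower in each set. Between the sets 26 of 31 were lower in EA20 and 3 higher (Orc5, Pold4 and Top1), against 16.3% and 17.3% of all genes, with a median of -0.75.

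**Figure D4:**
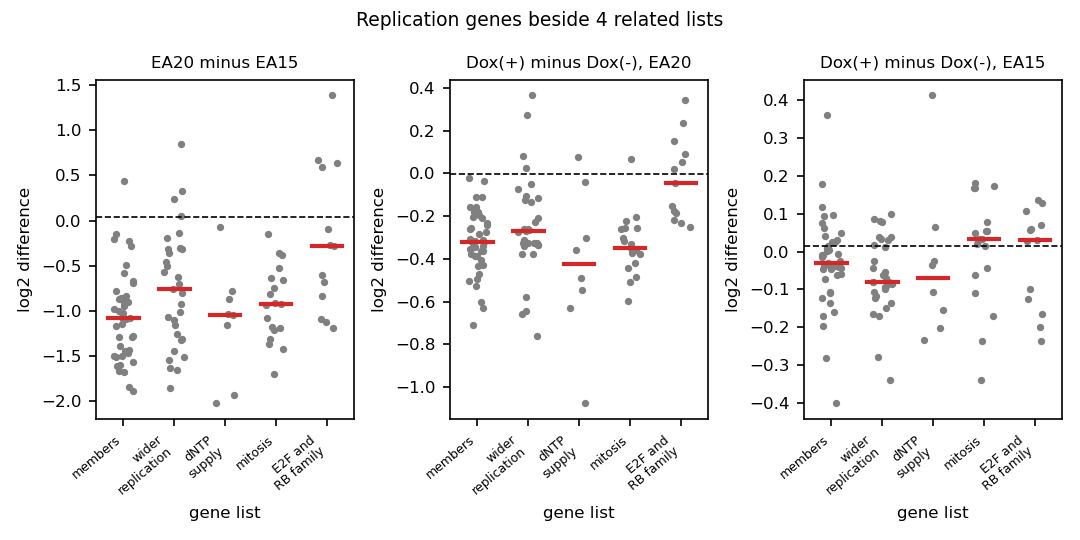
Log2 differences of the 43 replication genes (members) and of 4 related lists (x axis), each gene a grey point and each list's median a red line, between the sets of arrays (left), with doxycycline in EA20 (middle) and with doxycycline in EA15 (right); the dashed line is the median of all 18193 genes. Between the sets the median of the 43 genes was -1.08 and that of the E2F and RB family -0.29, and with doxycycline in EA15 the medians of all 5 lists lay between -0.08 and 0.03.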

How the data were processed

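The authors deposited 1 linear signal intensity per probe set and array (Affymetrix mouse arrays). Per the submitters' processing notes the software was Affymetrix Expression Console, and the method of summary it ran was not given in the sources used here. Each array has a mean of 500 after trimming 2% at each end. Of 45101 probe sets 64 were controls, 34945 had 1 gene symbol, 932 several and 9160 none listed in the platform annotation. Each of 18193 genes was read from its brightest probe set, as log2(signal + 16), which understates changes of dim genes. No gene was filtered out, and all 43 also passed the filter on dim genes tried below (above the 40th percentile).

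Differences were fitted with limma 3.58.1 under R 4.3.3 (lmFit, eBayes with a trend, two-sided, Benjamini-Hochberg over all genes), with doxycycline and the set of array codes as terms. The same model was fitted to EA20 alone and with an interaction. Only the fit with the block was tested on simulated data, with changes larger than the medians given here and noise independent between genes. That simulation does not bear on small differences shared by many genes. Replicate numbers follow sample order and are not pairs. The number of arrays limits the precision. The genes, lists and tests were chosen with earlier results of these data known. Array values are given for up to 5 genes of each role by smallest p, and up to 4 genes of each further list are named by smallest p. Array values of Mcm6 and Gins3 were given besides these, after their values were seen. Genes named for their difference between sets, for overlapping groups or for disagreeing probe sets were singled out after their values were seen. Alternatives were no block, quantile normalization, median centring, pseudocounts of 1 and 64, a filter on dim genes, the mean of a gene's probe sets, no probe set with an _a_at, _s_at or _x_at ending, no trend, a threshold of 0.10, and each array left out in turn.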

Additional observations from a re-analysis of the deposited data

How the results depend on the processing

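With doxycycline and the block, 0 of 43 genes passed; a pseudocount of 1 gave 1 (Rfc2), testing only genes above the 40th percentile of mean signal, which tests fewer genes, gave 3 (Pola1, Prim1 and Rfc2), an adjusted p under 0.10 gave 2, and leaving out each array gave 0 to 1 (Prim1, without 1 or the other EA15 array, when only EA20 informs the difference). The median ranged from -0.32, in those same fits, to -0.16. In EA20 alone 1 gene passed; there were 0 with median centring, 0 with a pseudocount of 64, 0 with the mean of all probe sets, 0 with no trend, 2 with quantile normalization, 4 with a pseudocount of 1, 4 at an adjusted p under 0.10, 14 above the 40th percentile, and 0 without any 1 EA20 array, where the median ranged from -0.37 to -0.25. Over all 18193 genes the block fit called 61 with a pseudocount of 1 and 95 at an adjusted p under 0.10, against 36. Above the 40th percentile it called 130 of 10916. In EA20 alone these alternatives gave 155, 222 and 397 of 10916, against 75. EA20 gave 88 with quantile normalization, 49 with median centring, 23 with a pseudocount of 64 and 12 with the mean of all probe sets. Without the trend no gene of 18193 passed for doxycycline in either fit. The cause of these shifts was not tested. Between the sets the median was -1.25 with median centring and ranged from -1.18 to -0.96 with an array left out. Rfc2 was higher and 38 to 41 of 43 genes were lower in EA20 in each alternative that kept all 43. The further replication genes gave 1 call above the 40th percentile and 1 at an adjusted p under 0.10. Among single genes between the sets, Mcm6 passed in 6 alternatives and Gins3 in 1. Among the 43 genes, no difference past the test with the block or between the sets turned its direction in the alternatives run. Some differences that did not pass turned sign: in the alternatives that kept all 43 genes, 40 to 43 were below 0 with doxycycline and the block, 41 to 43 with doxycycline in EA20, and 41 to 42 between the sets. The gap between the sets could not be fitted without an EA15 array. The lowest signal among the 43 genes was 238 (Orc1), above the median of an array.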

Other observations

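Genes around the replication machinery gave values of the same kind. Of 8 measured genes of deoxynucleotide supply, none passed with doxycycline with the block (median -0.32), and 6 were lower in EA20 than in EA15 (16.3% of all genes were; median -1.04). Rrm2, the regulated subunit of ribonucleotide reductase, gave 10645, 3075 and 2869 on the Dox(-) arrays and 9884, 2156 and 2072 on the Dox(+) arrays; in EA20 it fell with doxycycline (-0.49, limma adjusted p 0.043) and it was lower in EA20 than in EA15 by -2.03. Dctd, Dck and Tk1 of this list had blocked doxycycline differences of -0.49, -0.29 and -0.34. Between the sets their differences were -1.04, -0.78 and -1.93. Of 19 measured mitosis genes, none passed with the block (median -0.23), and 18 were lower in EA20 than in EA15 (16.3% of all genes were; median -0.92). Mki67, the proliferation antigen Ki-67, gave 8892, 7902 and 7552 on the Dox(-) arrays and 7551, 5264 and 4954 on the Dox(+) arrays and fell with doxycycline in EA20 (-0.60, adjusted p 0.029). Both EA20 calls, of Rrm2 and Mki67, were lost without Dox(-) array 2, Dox(+) array 2 or Dox(+) array 3 and without the trend, where 0 of 18193 genes passed. The 2 calls did not both hold without Dox(-) array 3. Nor did they with the mean of all probe sets, where 1 gene of 18193 was called lower in EA20 with doxycycline. Aurkb, Cenpf and Nusap1, of chromosome segregation and the spindle, had blocked differences of -0.35, -0.29 and -0.29.

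The E2F and RB family was mixed. Of its 13 genes none passed with doxycycline (median -0.02), and between the sets 6 were lower and 4 higher in EA20 (16.3% and 17.3% of all genes). Rb1, the retinoblastoma protein that holds E2F factors inactive, gave 2414, 3372 and 3799.8 on the Dox(-) arrays and 2638, 4553 and 4550.2 on the Dox(+) arrays, and was higher in EA20 by 0.67. E2f7, a repressor of the family, and Rbl1, the pocket protein p107, were lower in EA20 (-1.09 and -0.83), and Tfdp2, a dimer partner of E2F, was higher (0.60). Their blocked doxycycline differences were 0.27 for Rb1, -0.22 for E2f7, -0.16 for Rbl1 and -0.22 for Tfdp2.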
